A study of Mus musculus with 9 samples.

Results

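Sialic acid is the sugar that closes most N-glycan antennae on the surface of a T cell, and 6 genes that add, make, modify or remove it were followed here: St6gal1, St3gal3, Cmah, Nans, Neu1 and Ctsa. They were chosen with earlier results of these arrays known, and were matched to probe sets by the RefSeq accession in each identifier. Each of the 6 had 1 probe set, and together they are 6 of 909 named genes and 6 of 1246 probe sets on a custom glycobiology array. The probe set of Cmah carries the suffix s, so it can bind more than 1 transcript, and the other 5 are unique by their suffix. Among the other sialyltransferases named below, the probe sets of St8sia1, St3gal4 and St8sia6 carry the suffix s too.

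The arrays came from female B10D2 mice whose CD8 T cells carried a transgenic T cell receptor, with 3 arrays in each of 3 groups. Naive cells were the control and had not met the antigen, deletion cells had been stimulated in the animal by a weak signal of their cognate antigen, and anergy cells by a strong one. All 3 groups carried the receptor. The receptor's name, the driver of the transgene, the time after antigen, the hosts and any pooling of animals are not given in the labels, which also do not say that replicates came from separate animals. The p-values therefore cover only the spread among these arrays, which may be technical.

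Sialic acid is built in the cytosol from an amino sugar, activated to its CMP form in the nucleus and carried into the Golgi, where sialyltransferases place it on galactose at the tips of N-glycans. St6gal1 joins it in the alpha-2,6 linkage that Cd22 and other lectins read, and St3gal3 joins it in the alpha-2,3 linkage. Cmah hydroxylates the activated sugar to the N-glycolyl form common in mouse T cells. Neu1 is the lysosomal sialidase, which also acts at the surface of activated T cells and is stable only in a complex with the protective protein encoded by Ctsa. On resting T cells such caps are dense, and their loss after activation is known to change lectin binding and cell survival.

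Of the 6 genes, 5 were lower and 1 was higher than in naive cells, after weak and after strong antigen alike, by 1.40-fold to 1.87-fold in deletion cells and by 1.41-fold to 5.22-fold in anergy cells. Their median difference from naive was -0.66 on the log2 scale in deletion cells, beside -0.02 over all probe sets, and -0.80 in anergy cells, beside 0.0067. Only St6gal1 differed between deletion and anergy cells beyond the threshold. All values are log2 expression, differences are given with their standard error (SE), folds with their 95% limits, and a gene is said to have passed where limma's Benjamini-Hochberg adjusted p over the 1246 probe sets was below 0.05.

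**Figure D1:**
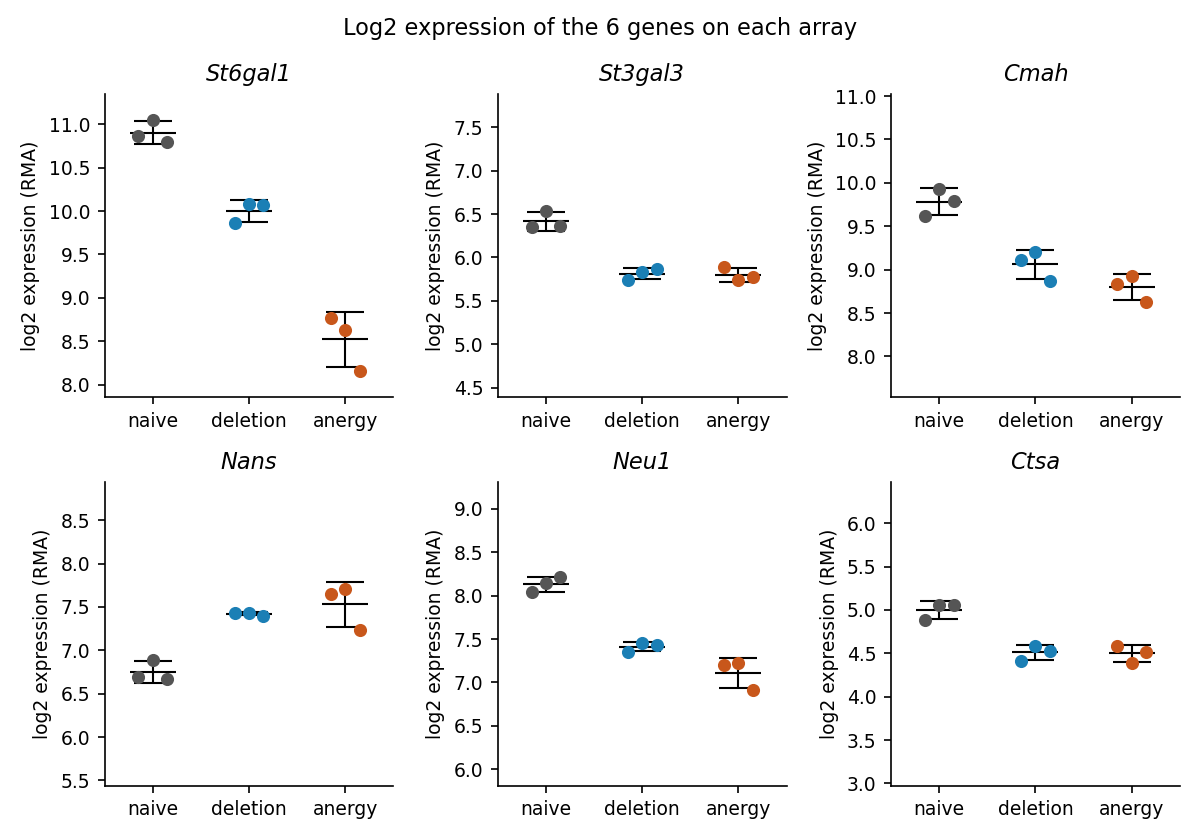
Log2 expression of the 6 genes (y axis, the same span in every panel) on each array of the 3 groups (x axis); points are arrays, the long bar is the group mean and the error bar its SD (n = 3). St6gal1 steps down over the 3 groups to 8.52 in anergy cells. For St3gal3, Cmah, Nans and Ctsa the deletion and anergy arrays overlap, and Nans alone is higher than in naive cells.

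St6gal1 is the main alpha-2,6 sialyltransferase of lymphocytes. The RefSeq annotation gives it 3 transcription starts, and the windows around them, 250 bases before to 50 after each start on GRCm38.p6, are shown because the single probe set could not tell transcripts of these starts apart. Capitals mark the 1 match found among 4 searched motifs, a GC box read on the opposite strand.

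St6gal1, chr16:23224490-23224789, plus strand: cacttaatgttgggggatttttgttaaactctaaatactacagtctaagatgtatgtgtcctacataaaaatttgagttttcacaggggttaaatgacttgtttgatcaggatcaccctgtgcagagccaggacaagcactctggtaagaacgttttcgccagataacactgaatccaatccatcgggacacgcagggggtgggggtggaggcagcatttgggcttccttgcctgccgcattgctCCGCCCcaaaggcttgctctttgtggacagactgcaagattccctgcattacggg

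St6gal1, chr16:23225771-23226070, plus strand: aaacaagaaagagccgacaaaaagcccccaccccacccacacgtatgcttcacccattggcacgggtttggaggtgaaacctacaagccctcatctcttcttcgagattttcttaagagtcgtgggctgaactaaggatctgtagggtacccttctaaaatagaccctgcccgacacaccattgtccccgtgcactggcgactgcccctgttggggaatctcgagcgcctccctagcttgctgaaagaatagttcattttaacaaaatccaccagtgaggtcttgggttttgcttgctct

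St6gal1, chr16:23290220-23290519, plus strand: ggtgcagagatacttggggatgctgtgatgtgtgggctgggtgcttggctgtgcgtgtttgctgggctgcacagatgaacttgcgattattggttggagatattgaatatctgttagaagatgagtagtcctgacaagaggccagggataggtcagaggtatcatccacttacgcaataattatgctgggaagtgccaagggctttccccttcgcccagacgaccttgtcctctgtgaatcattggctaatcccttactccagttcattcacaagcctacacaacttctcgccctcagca

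In naive cells St6gal1 read 10.86, 11.05 and 10.80 on replicates 1 to 3. In deletion cells it read 9.86, 10.08 and 10.07, and in anergy cells 8.77, 8.63 and 8.16. The 3 groups did not overlap: every naive array lay above every deletion array, and every deletion array above every anergy array. St6gal1 fell 1.87-fold in deletion cells (95% limits 1.49 to 2.34; -0.90 ± 0.15, SE; limma adjusted p = 0.00147) and 5.22-fold in anergy cells (4.16 to 6.54; -2.38 ± 0.15; limma adjusted p = 9.26e-07). These comparisons share the naive arrays.

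Set directly against each other, deletion cells held 2.80-fold more St6gal1 RNA than anergy cells (2.23 to 3.50; 1.48 ± 0.15, SE; n = 3 arrays per group; limma adjusted p = 0.000368). By absolute size this difference ranked 5 among the 1246 probe sets of its comparison. That of anergy from naive ranked 25 and that of deletion from naive 71. Anergy replicate 3 gave the lowest St6gal1 value, 8.16, and was the array with the widest residual spread, an SD of 0.166 against 0.0943 to 0.129 on the other 8. Without it the difference between deletion and anergy was 1.30 and still passed.

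St3gal3 encodes a sialyltransferase of the same N-glycan antennae that makes the other linkage. It read 6.35, 6.54 and 6.36 in naive cells, 5.74, 5.83 and 5.87 in deletion cells and 5.89, 5.74 and 5.77 in anergy cells. Deletion and anergy arrays overlapped, and all 6 lay below the naive arrays. The fall from naive was 1.52-fold in deletion cells (1.35 to 1.71; limma adjusted p = 0.000245) and 1.53-fold in anergy cells (1.37 to 1.72; limma adjusted p = 0.000158). The difference between deletion and anergy was 0.01 ± 0.07 on the log2 scale, with 95% limits of -0.15 to 0.18 (limma adjusted p = 0.944).

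Nans encodes the synthase that makes the phosphorylated sialic acid in the cytosol, and it was the 1 member that rose. Its values were 6.69, 6.89 and 6.67 in naive cells, 7.43, 7.43 and 7.40 in deletion cells and 7.65, 7.71 and 7.23 in anergy cells. The deletion arrays spanned only 7.40 to 7.43 and all 6 antigen-exposed arrays above the naive ones, and anergy replicate 3 was the lowest of those 6. Nans rose 1.59-fold in deletion cells (1.32 to 1.91; limma adjusted p = 0.00254) and 1.72-fold in anergy cells (1.43 to 2.06; limma adjusted p = 0.000658). Deletion minus anergy was -0.11 ± 0.12 (95% limits -0.38 to 0.16; limma adjusted p = 0.693), and passed in no setting. It ranged from -0.26 without anergy replicate 3 to -0.02 without anergy replicate 2, and was -0.19 after quantile normalization.

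Cmah encodes the hydroxylase that turns activated N-acetylneuraminic acid into its N-glycolyl form. It read 9.62, 9.93 and 9.79 in naive cells, 9.11, 9.20 and 8.87 in deletion cells and 8.84, 8.93 and 8.63 in anergy cells. Deletion replicate 3 lay within the range of the anergy arrays, and the naive arrays lay above all others. Cmah fell 1.65-fold in deletion cells (1.38 to 1.97; limma adjusted p = 0.00134) and 1.97-fold in anergy cells (1.65 to 2.36; limma adjusted p = 0.000124). The 0.26 ± 0.11 by which deletion exceeded anergy did not pass (95% limits 0.0030 to 0.52; limma adjusted p = 0.324). It was 0.12 after quantile normalization, which also did not pass.

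Neu1 and Ctsa, the sialidase and its stabilising partner, fell in both antigen groups. Their start windows are shown as a pair whose products form 1 complex and whose transcripts were lower together. For Ctsa the window of the start farther along the strand is given, since it held both E-box matches found; for Neu1 the only listed window is given, with a GC box on the opposite strand. Capitals mark motif matches.

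Neu1, chr17:34931003-34931302, plus strand: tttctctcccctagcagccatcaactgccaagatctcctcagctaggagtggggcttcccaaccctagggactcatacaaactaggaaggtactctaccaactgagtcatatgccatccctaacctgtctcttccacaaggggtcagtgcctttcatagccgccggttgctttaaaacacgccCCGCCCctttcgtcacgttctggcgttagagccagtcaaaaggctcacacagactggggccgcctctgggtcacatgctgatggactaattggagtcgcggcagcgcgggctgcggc

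Ctsa, chr2:164833523-164833822, plus strand: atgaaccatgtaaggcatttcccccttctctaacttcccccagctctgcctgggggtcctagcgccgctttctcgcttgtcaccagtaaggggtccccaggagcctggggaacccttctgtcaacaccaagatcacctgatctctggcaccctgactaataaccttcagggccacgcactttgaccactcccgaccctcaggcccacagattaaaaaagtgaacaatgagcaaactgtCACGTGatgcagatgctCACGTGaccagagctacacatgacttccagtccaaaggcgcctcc

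Neu1 read 8.04, 8.15 and 8.21 in naive cells, 7.35, 7.46 and 7.43 in deletion cells and 7.20, 7.22 and 6.91 in anergy cells. No 2 groups overlapped, although deletion and anergy were separated by little. Neu1 fell 1.65-fold in deletion cells (1.43 to 1.90; limma adjusted p = 0.000267) and 2.03-fold in anergy cells (1.77 to 2.34; limma adjusted p = 1.58e-05). It was 0.30 ± 0.09 higher in deletion than in anergy (95% limits 0.10 to 0.51), which did not pass (limma adjusted p = 0.112), and 0.20 higher without anergy replicate 3, its lowest array.

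Ctsa read 4.88, 5.06 and 5.06 in naive cells, 4.41, 4.59 and 4.53 in deletion cells and 4.59, 4.39 and 4.52 in anergy cells. Deletion and anergy arrays were interleaved below the naive arrays. The deletion and anergy levels lay near the array medians of 4.44 to 4.58, and the naive levels a little above them. Whether this probe set exceeded background signal was not tested. Ctsa fell 1.40-fold in deletion cells (1.24 to 1.59; limma adjusted p = 0.00168) and 1.41-fold in anergy cells (1.25 to 1.60; limma adjusted p = 0.000993). The difference between deletion and anergy was 0.01 ± 0.08 (95% limits -0.17 to 0.19; limma adjusted p = 0.957).

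**Figure D2:**
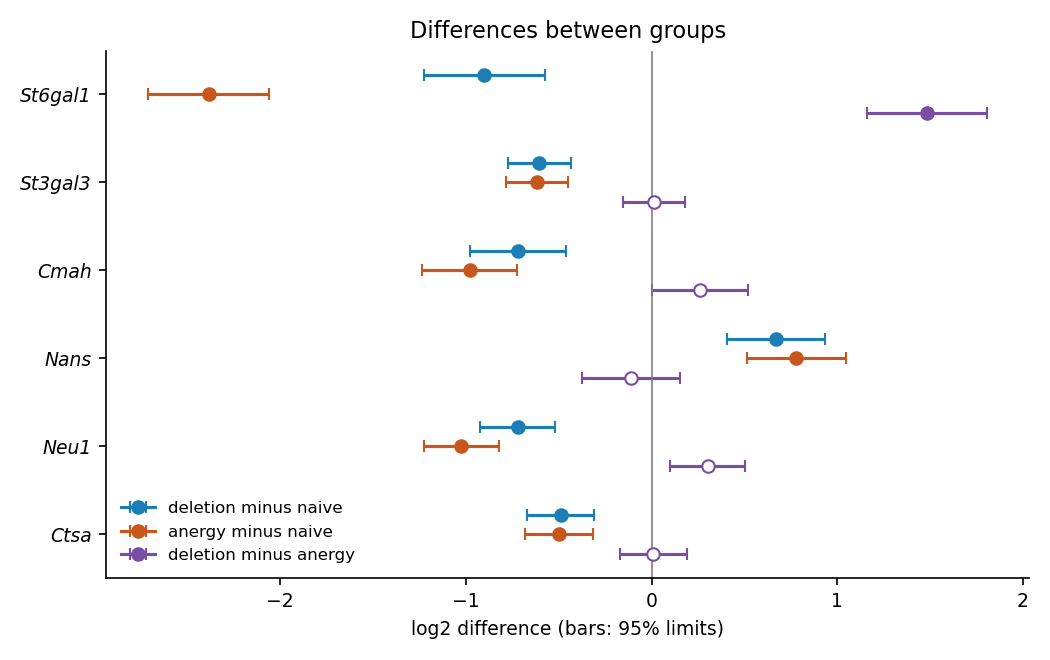
Log2 differences between groups (x axis) for the 6 genes (y axis), with 95% limits as bars and 3 arrays per group; filled points passed the adjusted threshold and open points did not. All 6 genes passed against naive cells in deletion and in anergy, and in deletion minus anergy only St6gal1 did, at 1.48.

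Counted over the 6 genes, 5 were called lower and 1 higher in deletion than in naive cells, where 10.5% of all 1246 probe sets were called lower and 8.51% higher. In anergy against naive the counts were again 5 lower and 1 higher, beside 16.1% and 10.8% of all probe sets. In each of these comparisons the arrays of the groups did not overlap for any of the 6 genes, as for 31.5% of all probe sets in deletion against naive and 33.9% in anergy against naive. In deletion against anergy 1 of the 6 was called higher and 0 lower (2.09% and 1.28% of all probe sets). St6gal1 and Neu1 were the 2 whose deletion arrays all lay above their anergy arrays, as 11.0% of all probe sets did. The genes were picked with earlier results of these arrays known, so these shares are a description. In bulk RNA of a cell population, fewer expressing cells and less RNA per cell cannot be told apart.

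As a description with no test, since both differences use the naive arrays, the deletion difference was set as a share of the anergy difference. For St3gal3 and Ctsa it was 97.8% and 98.0%, for Nans 85.9%, for Cmah 73.5% and for Neu1 70.4%. For St6gal1 it was 37.8%. The order of the levels was naive, then deletion, then anergy for the falling genes, and for St3gal3, Cmah, Neu1 and Ctsa the last 2 neighbours did not differ past the threshold. For Nans anergy had the highest mean, deletion followed and naive was lowest, and anergy and deletion likewise did not differ past the threshold.

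To set the changes against each other within each array, the log2 ratio of St6gal1 to each other member was taken relative to its mean in naive cells, which leaves out any scaling of whole arrays. St3gal3 is only 1 of the enzymes of the other linkage, so its ratio does not measure the balance of the linkages. Relative to St3gal3, St6gal1 was at -0.30 ± 0.07 (SD, n = 3) in deletion cells and at -1.77 ± 0.29 in anergy cells. The difference of 1.47 between those groups was 1.31 without anergy replicate 3. Relative to the other 4 genes, deletion exceeded anergy by 1.18 (Neu1), 1.22 (Cmah), 1.47 (Ctsa) and 1.59 (Nans), and the groups did not overlap for any of the 5 ratios. In a two-sided exact permutation test each of these 5 differences had p = 0.1, the smallest that 3 arrays against 3 allow (0.115 adjusted over the 15 ratio comparisons made). Such a test could not pass 0.05. Between deletion and naive cells the ratios to Cmah and Neu1 overlapped, each at a mean of -0.18 in deletion cells (exact permutation p = 0.3).

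**Figure D3:**
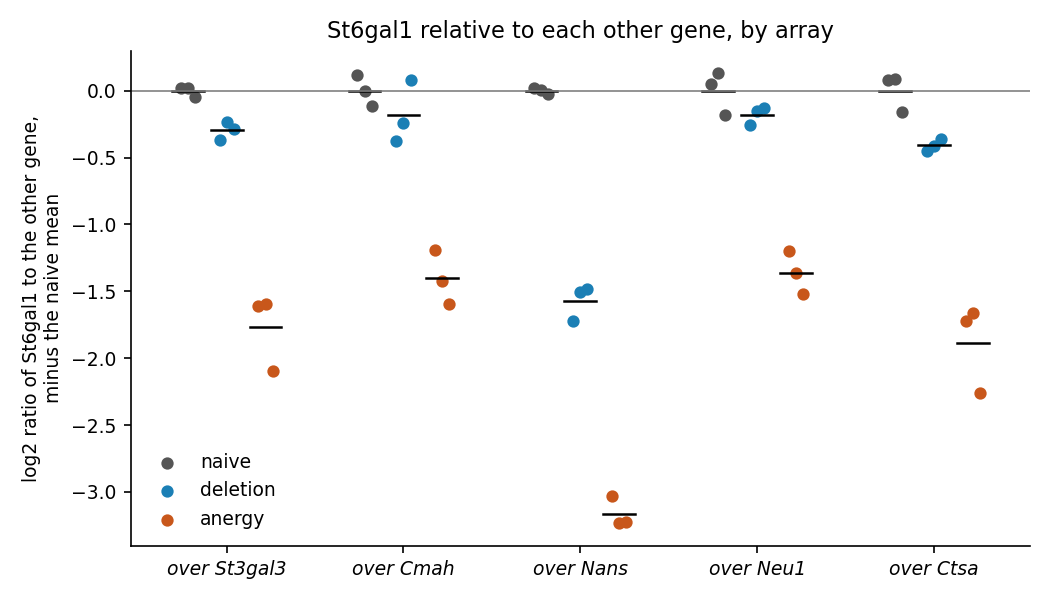
Log2 ratio of St6gal1 to each of the other 5 genes on every array, minus the naive mean of that ratio (y axis), by gene (x axis) and group (colour); black lines are group means of 3 arrays. The anergy arrays lie below the deletion arrays for all 5 ratios, by 1.18 to 1.59.

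Most of the rest of the sialyltransferase family did not pass. Of 20 listed genes 19 were measured, and in deletion cells 1 was called higher and 3 lower, where 8.51% and 10.5% of all probe sets were. In anergy cells 2 were called higher and 5 lower, beside 10.8% and 16.1% of all probe sets. Without St6gal1 and St3gal3 the counts over the other 17 were 1 and 1 in deletion cells and 2 and 3 in anergy cells. Against naive the rest of the family thus lay near the shares of the whole array. In deletion against anergy 3 of the 19 were called higher and 0 lower, beside 2.09% and 1.28% of all probe sets. Of the other 17, 2 were called higher and 0 lower in that comparison. The median difference from naive over the 19 was -0.03 in deletion and -0.02 in anergy, beside -0.02 and 0.0067 over all probe sets.

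St8sia1, which makes the ganglioside GD3 and has no part in N-glycans, was the only other sialyltransferase past the threshold in all 3 comparisons, although St3gal1 joined it when anergy replicate 1 was left out. It read 7.73 to 7.84 in naive, 6.29 to 6.62 in deletion and 4.93 to 5.40 in anergy cells, so its differences from naive were -1.37 ± 0.12 and -2.67 ± 0.12 (SE). As for St6gal1, no groups overlapped, and deletion cells exceeded anergy cells, here by 1.30 ± 0.12 (limma adjusted p = 0.000368).

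St3gal4, which also sialylates N-glycan antennae in the alpha-2,3 linkage, was the only one called higher in deletion cells under the standard settings (all 9 arrays as deposited, no block, equal weights). It read 6.31 to 6.50 in naive, 6.73 to 7.07 in deletion and 6.37 to 6.52 in anergy cells. Its difference was 0.48 ± 0.09 from naive (limma adjusted p = 0.00444) and 0.44 ± 0.09 from anergy (limma adjusted p = 0.0315), and the latter passed in 7 of 18 settings. It was lost under median centring, with only the 2 groups fitted, with a variance trend, without moderation of the variance and without any 1 of naive replicates 1 and 2, deletion replicates 1 and 2 and the 3 anergy replicates. St3gal1, which caps core 1 O-glycans, fell in anergy cells (-0.77 ± 0.11; limma adjusted p = 0.000608) and was at -0.28 in deletion cells, which passed only with the 2 groups fitted alone or without anergy replicate 1. St3gal5, the GM3 synthase, rose in anergy cells by 0.52 ± 0.10. In deletion cells it was called higher after quantile normalization (0.30), with the replicate block (0.29) and without naive replicate 2 (0.41), and in no other setting. St6galnac6 rose in anergy cells by 0.34 ± 0.09, and St8sia6 fell by 0.49 at levels of 2.61 against 3.10, near the lowest values of the arrays. The call of St6galnac6 was lost without naive replicate 2 or anergy replicate 2, and that of St8sia6 without moderation of the variance. St3gal6, a further alpha-2,3 enzyme, differed from naive by 0.03 ± 0.09 in deletion and 0.02 ± 0.09 in anergy.

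**Figure D4:**
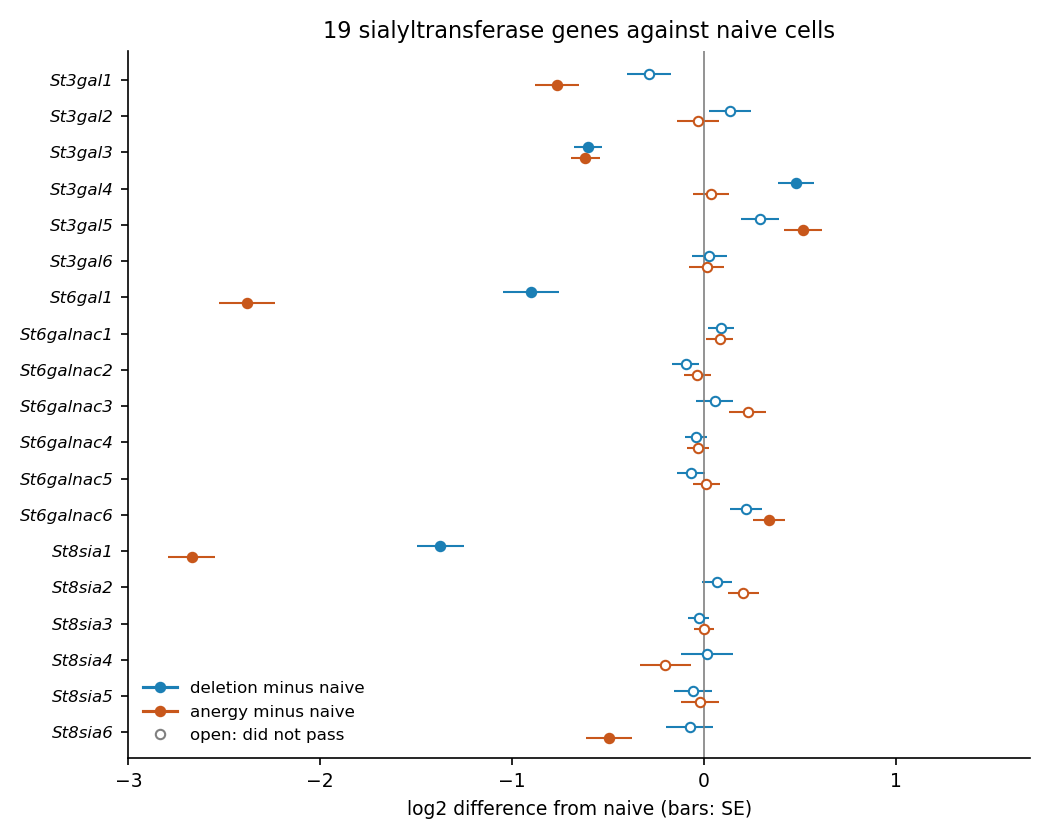
Log2 difference from naive cells (x axis; bars are SE) of the 19 measured sialyltransferase genes (y axis) in deletion and anergy cells, 3 arrays per group; filled points passed the adjusted threshold. St6gal1 and St8sia1 lie farthest to the left, at -2.38 and -2.67 in anergy cells, and 12 of the 19 did not pass in anergy and 15 in deletion.

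Along the supply of sialic acid, Nans was the 1 gene called higher under the standard settings, and Gne, Cmas and Slc35a1 did not pass. Nanp, which acts directly after Nans, was not measured. Of 15 listed genes of its synthesis, activation, transport, hydroxylation and breakdown 12 were measured. In deletion cells 1 was higher and 3 lower than naive, beside 8.51% and 10.5% of all probe sets, with a median of -0.02. In anergy cells 1 was higher and 2 lower, beside 10.8% and 16.1%, with a median of 0.05. The anergy count moved with the setting: 3 were higher without anergy replicate 3 and with array weights, where Cmas and Gfpt1, the first enzyme of UDP-GlcNAc synthesis, joined Nans. With quantile normalization Cmas joined Nans, and with the replicate block Gfpt1 did. Gne, which makes the precursor one step before Nans, differed from naive by -0.03 ± 0.12 in deletion and -0.19 ± 0.12 in anergy cells. Cmas, which activates sialic acid, differed by 0.14 ± 0.10 and 0.20 ± 0.10, and Slc35a1, which carries the activated sugar into the Golgi, by -0.11 ± 0.14 and -0.28 ± 0.14. None of these 3 passed under the standard settings. Earlier in the supply, Gnpnat1 of UDP-GlcNAc synthesis passed lower in deletion (-0.40 ± 0.12) and anergy cells (-0.38 ± 0.12), in 8 of 18 settings each. Uap1, which completes that synthesis, passed lower in deletion cells (-0.43 ± 0.11; 12 of 18 settings) and not in anergy cells (-0.33 ± 0.11), where it did pass with the replicate block, with the dimmest probe sets left out and without naive replicate 3 or anergy replicate 2. Median centring and no moderation ended the calls of Gnpnat1 and Uap1, and quantile normalization those of Gnpnat1. The call of Gnpnat1 in deletion cells was lost without any 1 naive or deletion array or without anergy replicate 2. In anergy cells it was lost with only the 2 groups fitted and without naive replicate 1 or 2, anergy replicate 3 or any 1 deletion array. The call of Uap1 in deletion cells was lost without naive or deletion replicate 1 or 2.

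For the removal of sialic acid 6 of 7 listed genes were measured, and Neu1 and Ctsa were the 2 called lower in each antigen group, with 0 higher. Of all probe sets 10.5% were called lower and 8.51% higher in deletion cells, and 16.1% and 10.8% in anergy cells. As members chosen with these results known, Neu1 and Ctsa make up the whole count, and 0 of the other 4 passed under the standard settings. Glb1 was a further gene called lower in anergy cells with the replicate block, and Neu3 was called higher in deletion cells without deletion replicate 3 (0.40). The median of the 6 was -0.04 in deletion and -0.19 in anergy cells. Glb1, the beta-galactosidase that joins the same lysosomal complex, differed from naive by -0.07 ± 0.12 and -0.24 ± 0.12, and Galns, a further enzyme found with it, by -0.01 ± 0.10 and -0.13 ± 0.10. Neu3, the sialidase of gangliosides at the plasma membrane, was at 0.29 ± 0.10 in deletion cells (limma adjusted p = 0.0875) and 0.07 ± 0.10 in anergy cells. In deletion against anergy 0 of the 12 supply genes and 0 of the 6 removal genes passed in limma, where 2.09% of all probe sets were called higher and 1.28% lower, so a count of 0 is near the background. Of those 18 genes, Cmah and Neu1 had an unadjusted p under 0.05.

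Enzymes that build the galactose-tipped antennae, on which St6gal1 and St3gal3 act, gave 1 higher and 3 lower of 10 measured in each antigen group, beside 8.51% and 10.5% of all probe sets in deletion and 10.8% and 16.1% in anergy cells. The median difference from naive was -0.05 in deletion and -0.03 in anergy cells. B4galt1, which adds the galactose that is then sialylated, read 9.94 to 10.08 in naive, 9.23 to 9.48 in deletion and 9.08 to 9.41 in anergy cells, so it fell by 0.62 and 0.74 on the log2 scale. B4galt3, of the same activity, fell by 0.34 and 0.44. Man2a2, which trims mannose so that complex antennae can form, fell by 1.06 and 1.67, with naive arrays from 6.67 to 7.66, and in deletion cells its call was lost without moderation. Mgat1, which starts the branches, was higher by 0.29 ± 0.09 and 0.34 ± 0.09, and median centring ended both calls. The first was also lost with only the 2 groups fitted, with a variance trend, without moderation and without any 1 naive array, deletion replicate 1 or 2 or anergy replicate 1 or 2, and the second without naive replicate 1 or anergy replicate 1 or 2. In deletion against anergy 0 of the 10 passed, and Man2a2 alone among them had an unadjusted p under 0.05.

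Among 9 lectins that bind sialic acid, Cd22 and Siglecf were called higher than naive in each antigen group and 0 lower, beside the same shares of all probe sets. Cd22, whose ligand in mice is the alpha-2,6-linked N-glycolyl sugar, read 5.97 to 6.50 in naive, 7.16 to 7.70 in deletion and 7.07 to 7.32 in anergy cells, a rise of 1.17 ± 0.16 and 0.98 ± 0.16. Siglecf rose by 0.33 ± 0.09 and 0.39 ± 0.09 at levels of 2.31 in naive cells, near the lowest values of the arrays. In deletion cells it passed in 11 of 17 settings. That call was lost under median centring, without moderation and without naive replicate 1 or 2 or deletion replicate 1 or 3. The median over the 9 was 0.0033 in deletion and 0.02 in anergy cells.

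**Figure D5:**
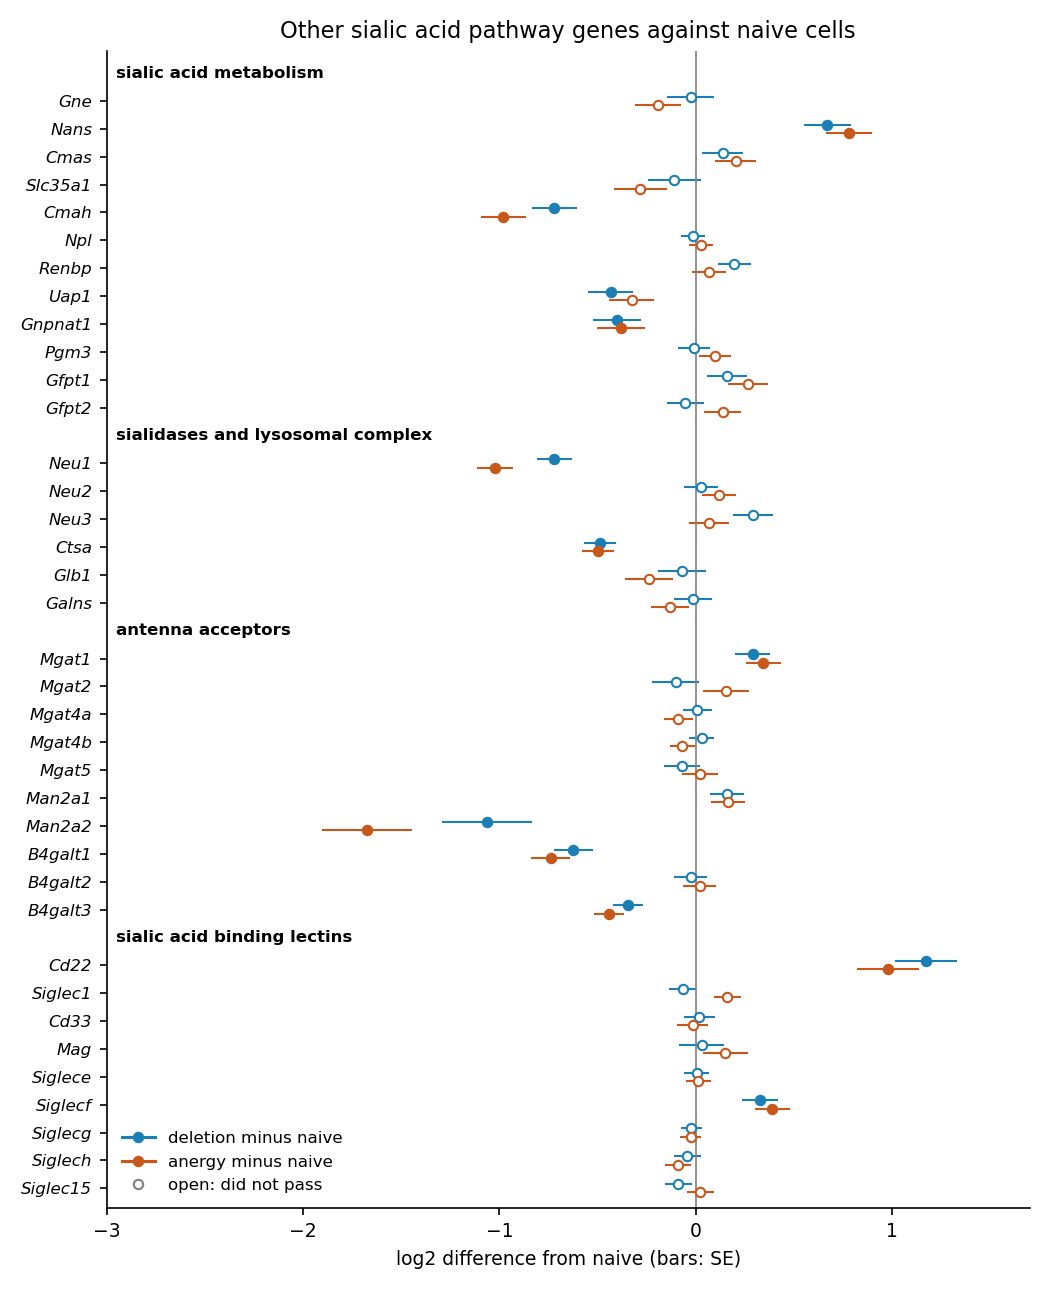
Log2 difference from naive cells (x axis; bars are SE) of the measured genes of sialic acid metabolism, sialidases and their complex, antenna building and sialic acid binding (y axis), in deletion and anergy cells with 3 arrays per group; filled points passed the adjusted threshold. Nans and Cd22 lie farthest to the right, and Cmah, Neu1, B4galt1 and Man2a2 to the left.

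Markers of other cells moved with these results as follows. Of 9 listed CD8 T cell markers only Cd2 was measured, so the labelled cell type could not be checked against Cd8a or Cd3e. Cd2 itself differed from naive by -1.57 ± 0.14 in deletion and -2.18 ± 0.14 in anergy cells. It was also called higher in deletion than in anergy cells (0.61 ± 0.14, limma adjusted p = 0.039), in 8 of 18 settings. Of 9 listed B cell markers 4 were measured, and in deletion cells Cd22 and Cxcr5 were called higher and Cd72 lower, in anergy cells Cd22 higher and Cd72 lower, while Fcer2a read 2.63 to 2.89 on all arrays. Their summed level on the linear scale was 609.5 to 680.1 on naive, 403.7 to 574.4 on deletion and 376.0 to 432.9 on anergy arrays. For 9 of 14 macrophage and dendritic cell markers it was 229.6 to 237.2, 181.8 to 214.3 and 185.6 to 192.3, with Ly75 called lower in each. For 3 of 5 natural killer cell markers it was 2598 to 2942, 1239 to 1620 and 1717 to 1900, with Klrc1 called higher and Klrd1 lower in each. For Il2ra, the 1 measured of 4 CD4 and regulatory T cell markers, it was 11.2 to 12.0, 10.5 to 13.8 and 23.8 to 28.6. Each sum is weighted towards its brightest probe sets, so it does not measure a share of cells. These were Ly75, Klrd1 and, in naive cells, Cd72. In the antigen groups Cd22 was about as bright as Cd72. Cd22 and Cd72 had means of 7.42 and 7.31 in deletion cells and of 7.22 and 7.23 in anergy cells. Markers of 1 list moved in opposite directions: against naive, Cd72 was at -1.56 in deletion and -1.64 in anergy cells where Cd22 rose, and Klrd1 was at -1.04 and -0.92 where Klrc1 was at 3.01 and 4.88. The median difference over the measured B cell markers was 0.305 in deletion and 0.08 in anergy cells. It was -0.04 and -0.09 for macrophage and dendritic cell markers and -0.09 and -0.15 for natural killer cell markers. In deletion against anergy, Il2ra (-1.05 ± 0.11, limma adjusted p = 0.000525) and Klrc1 (-1.87 ± 0.18, limma adjusted p = 0.000368) were called lower. Apart from these and Cd2, no measured marker passed in that comparison, where 2.09% of all probe sets were called higher and 1.28% lower. The part of other cells in the differences of the 6 genes was not tested.

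By profile over the 9 arrays, the 2 genes most like each member were found by Pearson r of log2 values. For St6gal1 they were Lipa (0.98), the lysosomal acid lipase, and Pigp (0.97), of GPI anchor synthesis. For St3gal3 they were Icam1 and Il2rg (both 0.98), and for Cmah Il21r and Tgfbr2 (both 0.98). Nans was most like Txndc12 and Gmds (both 0.98), the latter an enzyme of GDP-fucose supply. Neu1 was most like Il21r and Galnt11 (both 0.99), and Ctsa was most like Grifin (0.98) and St3gal3 (0.97). All arrays are shared by both genes of a pair and the group steps dominate r, so these are descriptions. Differences from naive for Lipa were -0.35 in deletion and -0.95 in anergy cells, and for Il21r -0.73 and -0.99, beside -0.72 and -1.02 for Neu1.

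Start windows were listed for 5 of the 6 genes, 9 windows in all; Nans was not matched. They were searched on both strands for an E-box (CACGTG), a GC box (GGGCGG), a forkhead motif (GTAAACA) and a TATA box (TATAAA), none of which overlapped. Positions count the annotated start as 0. The E-box was found in 1 of the 9 windows, that of Ctsa shown above, at -12 and 5 from the start, and in 7.15% of all 32851 windows. The GC box was found in 3 of 9, those of St6gal1, St3gal3 and Neu1, and in 35.7% of all windows. The forkhead motif and the TATA box were in 0 of the 9 windows and in 3.65% and 13.6% of all. The window of St3gal3 held 70.0% G and C, the windows of Cmah 47.3% and 48.7%, and the median of all windows was 52.7%. A match is a run of letters and not a measured site.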

How the data were processed

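RNA of 9 samples, 3 per group, was hybridised to single-colour Affymetrix GLYCOv4 arrays. Total RNA was extracted with Trizol and labelled with biotin, per the labels' protocols. Each probe set has 1 deposited log2 expression value per array, made by the authors with RMA, per the submitters' processing notes; the sources used here give no version, annotation or filter. Values ran from 1.67 to 13.86 and array medians from 4.44 to 4.58. No detection value was used, so a probe set near the low end may understate a change. Precision is limited by the number of arrays; a difference between groups had a median SE of 0.087.

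Probe sets were named by their unversioned RefSeq accession through a RefSeq gene table (GRCm38.p6), which named 963 of 1246 (77.3%) as 909 genes; for a gene with several the brightest on average was taken. Windows came from RefSeq on the same build. The deposited log2 values were used unscaled and unfiltered. The 3 contrasts were fitted with limma 3.58.1 (R 4.3.3; lmFit, eBayes) over all 9 arrays with no block, two-sided, with Benjamini-Hochberg adjustment over 1246 probe sets and a threshold of 0.05; the fit was tested on simulated data. Deletion and anergy arrays of 1 number deviated together (r = 0.195, 0.270 and 0.281), but the labels state no pairing. The standard fit and the permutation tests did not use a pairing. It entered only as the replicate block, 1 of the alternative settings.

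The 6 genes, the pathway and marker lists, the naming rule and the tests were chosen with earlier results of these data known. The rule named the 6 genes, list members past the threshold and the 2 most similar genes; other list members named (Gne, Cmas, Gfpt1, Slc35a1, Glb1, Galns, Neu3, St3gal6 and Fcer2a) were chosen after their values were seen. Alternatives were 2 scalings, fits to 2 groups, a replicate block, array weights, leaving out the dimmest 0.332 of probe sets, a variance trend, no moderation and leaving out each array. Another probe set per gene was not run, since each member had 1.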

Additional observations from a re-analysis of the deposited data

Results flagged for a closer look

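The change from naive cells differed between deletion and anergy, by the limma test of the difference itself, for 3 of 19 measured sialyltransferases. All 3 were called higher in deletion than in anergy cells, as were 2.09% of all probe sets. For St6gal1 the difference was 1.48 ± 0.15 on the log2 scale (SE; limma adjusted p = 0.000368). For St8sia1 it was 1.30 ± 0.12 (limma adjusted p = 0.000368). For St3gal4 it was 0.44 ± 0.09 (limma adjusted p = 0.0315), the only one of the 3 that was not called in every setting.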

How the results depend on the processing

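Of 306 alternative values of the 6 genes in the 3 comparisons, 299 kept their direction and their side of the threshold, among them all 204 against naive cells. The other 7 were changes of sign of St3gal3 and Ctsa in deletion minus anergy, called in no setting. St3gal3 was -0.0985 after quantile normalization and -0.0167 to 0.0583 when 1 array was left out, and Ctsa was -0.0450 to 0.0600 when 1 array was left out. The number of the 6 genes called was 6, 6 and 1 in every setting. St6gal1 in deletion minus anergy ranged from 1.30 to 1.61 (highest adjusted p 0.0168).

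The 42 probe sets called in deletion minus anergy became 70 with quantile normalization (32 higher, 38 lower), 26 with median centring (13 of each), 21 when only the 2 groups were fitted, 75 with array weights, 14 with no moderation, and 20 to 44 when 1 array was left out, with 20 without deletion replicate 2 and 27 without deletion replicate 3; the cause was not tested.

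With the replicate number as a block, 258, 346 and 55 probe sets were called in deletion minus naive, anergy minus naive and deletion minus anergy, and no call of the 6 genes changed. Same-numbered arrays of deletion and naive correlated at -0.136, 0.119 and -0.143, and those of anergy and naive at -0.154, 0.274 and 0.175. In these pairs of groups 2 and 4 of 6 arrays correlated best with their own number, against 6 of 6 for deletion and anergy. Whether arrays of the same number share an animal, day or batch was not tested.

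Settings for the list counts were added after seeing the data. Supply genes in anergy against naive, 1 higher and 2 lower, became 2 and 1 with arrays quantile-normalized, 1 and 1 with arrays centred on the median, 2 and 3 with the replicate block, 3 and 2 with array weights, and 3 and 1 when anergy replicate 3 was left out; over all settings 1 to 3 were higher and 1 to 3 lower. In deletion against naive, 1 and 3, the lower count was 2 with quantile normalization, 1 with median centring, 3 with the replicate block and 1 to 3 when 1 array was left out. Removal genes kept counts of 0 and 2, except 0 and 3 with the replicate block in anergy and 1 and 2 without deletion replicate 3 in deletion cells. Sialyltransferases higher in deletion cells, 1, became 2 with quantile normalization, the replicate block, only 2 groups fitted, or naive replicate 2 or anergy replicate 1 left out. In deletion minus anergy, 3 higher of 19 became 2 to 4 over the settings, beside 2.09% of all probe sets under the standard settings.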
